A study of Homo sapiens with 4 samples.

Results

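ABCB1 and its neighbours on chromosome 7, with 4 drug transporter genes of other chromosomes, were followed in HAP1 cells with and without an intact MATR3 gene, which encodes the nuclear matrix protein matrin 3, a binder of RNA and DNA. The set holds 10 of the 60662 genes in the deposited count table: DMTF1, CROT, ABCB4, ABCB1, RUNDC3B and SLC25A40 on chromosome 7, and ABCC1, ABCC4, ABCC5 and ABCG2 elsewhere. They were picked by name, with the read counts of these same libraries known, so the differences of these genes between the knockout and wild-type libraries are given as a description and support nothing further. HAP1 is an adherent, near-haploid human line of leukaemic origin, derived from KBM-7 cells. The 2 MATR3 knockout (KO) libraries came from the purchased knockout clones 1 and 5, with 1 library each, and the 2 wild-type (WT) libraries, called A and B, came from clone 4 of the parental line. The labels name no drug treatment, and each library stands for a single clone, so what sets a clone apart cannot be told apart from the knockout. The date tag in the library names differs between KO and WT, so that date and genotype cannot be told apart either. The name of WT A also carries the tag FACS and that of WT B the tag test, which the labels do not explain. The labels name no separate cultures of a clone. The spread behind the p-values pools that between the 2 KO clones with that between the 2 libraries of WT clone 4. The WT part may be technical only.

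ATP-binding cassette (ABC) transporters use the energy of ATP to move substrates across membranes. ABCB1, also called P-glycoprotein or MDR1, exports a wide range of hydrophobic drugs from the cell, and its gain is a classical cause of multidrug resistance in cultured cells. ABCC1, ABCC4 and ABCC5 export organic anions and drug conjugates, and ABCG2, the breast cancer resistance protein, works as a dimer and shares some of their substrates. Amplified segments of drug-selected cells often carry the genes beside ABCB1 along with it.

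Each library was read as PCR-amplified cDNA of total RNA on an Oxford Nanopore MinION, a sequencer of long reads. The libraries held 3121759 and 4024026 counts in KO clones 1 and 5, against 3509906 and 5303199 in WT A and B. At this depth all 10 genes had at least 1 count, and 6 had enough to be tested. The row listed as MATR3 had 27 and 37 counts in KO clones 1 and 5, against 41 and 43 in WT A and B, and the row of the other MATR3 gene model had 187 and 204 against 171 and 304. A summed count does not detect a small edit, so neither row checks the genotype labels. Of 16 haematopoietic markers 7 had a count, and 9 were at 0 in all 4 libraries, among them PTPRC, CD34, SPI1, GATA1, CD33, ITGAM, LYZ and HBG1. The summed haematopoietic markers stood at 50.0 and 40.4 CPM (counts scaled to a common library size) in KO clones 1 and 5, against 24.4 and 27.2 CPM in WT A and B. Of 8 fibroblast markers 4 had a count, with sums of 37.1 and 34.7 CPM in KO clones 1 and 5, against 18.7 and 32.1 CPM in WT A and B. Of 7 markers of hepatobiliary and kidney epithelium, where several of these transporters are known to be high, 6 had a count and the sums were 3.68 and 3.88 CPM in KO clones 1 and 5, against 5.35 and 4.29 CPM in WT A and B. COL1A2, COL3A1, DCN and LUM among the fibroblast markers and LRP2 among the epithelial ones were at 0. Only 4 haematopoietic, 2 fibroblast and 0 epithelial markers had enough counts for the edgeR fit, which called 0 of them. The other markers could not be called, and the part of the markers in the results below was not tested.

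ABCB1 had no count in either knockout clone. It lies on the minus strand of chromosome 7 (hg38, 87503017 to 87713323) and had 0 and 0 counts in KO clones 1 and 5, against 26 and 21 in WT A and B. That is 0 and 0 CPM in KO against 7.73 and 3.92 CPM in WT, so the groups did not overlap, and WT A stood above WT B. Against a floor of 3 pooled KO counts, with the WT counts taken as exact, ABCB1 was at least 12.8-fold lower in the KO clones. Counting error of the WT counts would lower this bound. Floors and intervals here reflect counting error alone, as amplified copies are no independent molecules. In bulk RNA, fewer cells that express a gene and less RNA per cell cannot be told apart.

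CROT, the peroxisomal carnitine O-octanoyltransferase that hands medium-chain acyl groups to carnitine, lies on the other side of ABCB4 at 87345664 to 87399794, on the plus strand. It had 0 and 2 counts in KO clones 1 and 5, against 30 and 30 in WT A and B. At 0 and 0.517 CPM in KO against 8.92 and 5.59 CPM in WT, the groups did not overlap. The 2 KO counts against 60 WT counts gave a level 24.5-fold lower in KO, with a 95% exact counting interval of 6.49 to 207. Both KO counts came from clone 5, so that KO clone 1 alone gives no measured ratio.

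RUNDC3B, a RUN-domain protein gene on the plus strand (87627548 to 87832296), shares 85776 bases of its span with ABCB1 on the opposite strand, though 0 exonic bases. It had 1 and 1 counts in KO clones 1 and 5, against 7 and 5 in WT A and B, or 0.307 and 0.259 CPM in KO against 2.08 and 0.932 CPM in WT. The KO libraries lay below both WT libraries, and the pooled counts were 4.9-fold lower in KO, with a 95% exact counting interval of 1.09 to 45.1. These counts were too few for the main fit. In a fit without a count filter, the log2 fold change of RUNDC3B, KO over WT, was -2.24 and did not pass an adjusted p under 0.05. ABCB4 (87401696 to 87480435), the phosphatidylcholine floppase of bile canaliculi, sits between CROT and ABCB1 and had 1 count in WT B and 0 in the other 3 libraries, so it was hardly measured and no fold is given.

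The outer genes of the stretch were present in all 4 libraries. DMTF1, a cyclin D-binding Myb-like transcription factor gene (87152409 to 87196337), had 30 and 30 counts in KO clones 1 and 5, against 29 and 50 in WT A and B, and its levels of 9.21 and 7.76 CPM in KO overlapped with 8.63 and 9.32 CPM in WT. Its log2 fold change, KO over WT, was -0.09 (SE 0.34, taken here and below from the fold change and its F statistic). SLC25A40, a mitochondrial inner-membrane carrier related to the glutathione carrier SLC25A39, lies at 87833568 to 87876360. It had 17 and 30 counts in KO clones 1 and 5, against 8 and 23 in WT A and B. Its levels were 5.22 and 7.76 CPM in KO and 2.38 and 4.29 CPM in WT, with both KO libraries above both WT libraries and a log2 fold change of 0.91 (SE 0.44). SLC25A40 shares 145 exonic bases with DBF4 on the opposite strand, and DMTF1 shares 178 with TMEM243; no source used here states whether counting used the strand, and reads there could go to either gene.

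**Figure D1:**
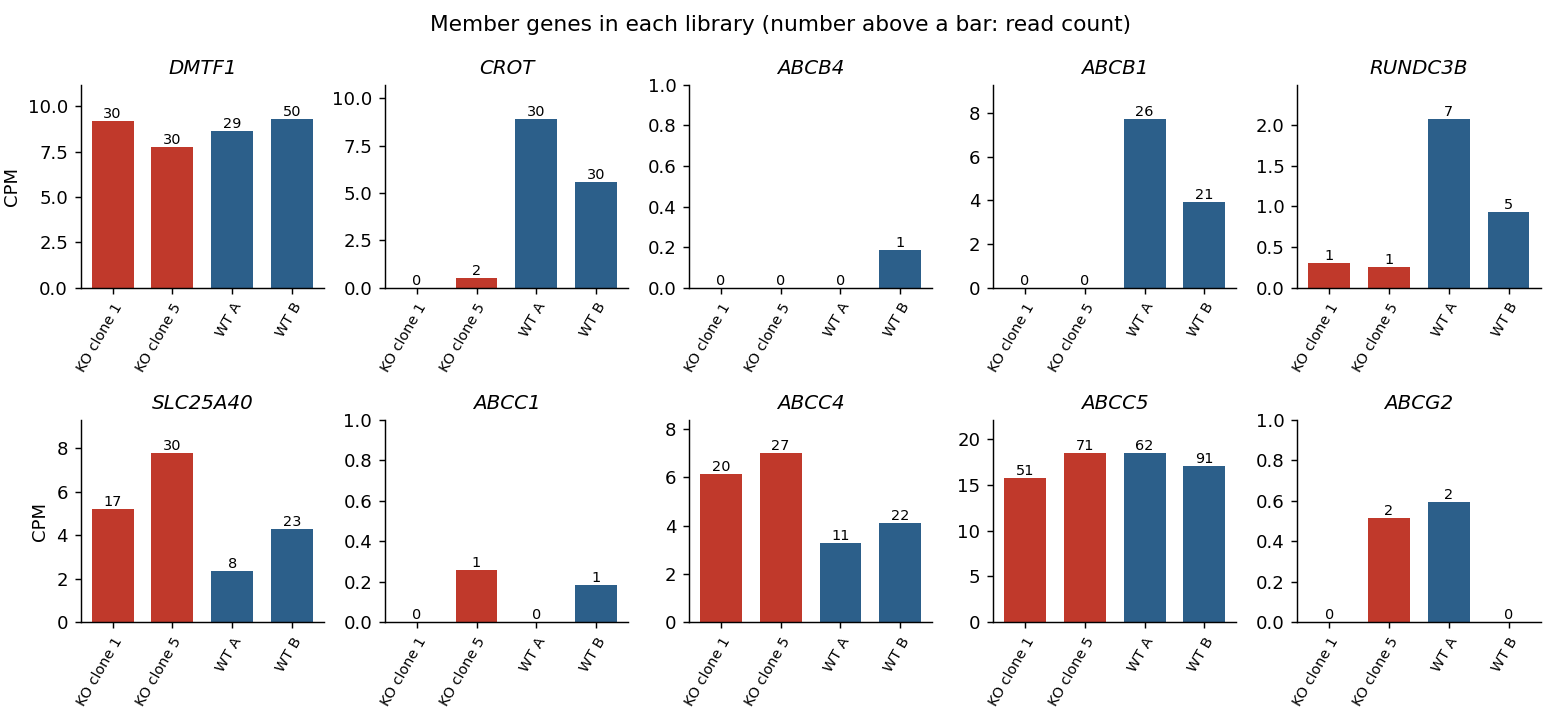
Bars give the level of each of the 10 genes in CPM, on an axis from 0 that differs between panels, for the single libraries of KO clones 1 and 5 and WT A and B, with the read count above each bar. ABCB1 has 0 counts in both KO clones, CROT has 0 and 2, and RUNDC3B has 1 and 1, while DMTF1, ABCC4 and ABCC5 have 11 or more in every library.

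Of the 6 tested genes ABCB1 and CROT passed as lower and 0 as higher at an adjusted p under 0.05 in the edgeR fit over all genes, and 4 did not pass. Over all 10505 genes tested, 0.609% passed as lower and 1.58% as higher; as the genes were picked with this contrast known, nothing is read from that count. In 3 of the 10 genes both KO libraries lay below both WT libraries and in 2 both lay above, where 22.8% and 25.0% of all tested genes did so. The sets are not alike, as the 10 include genes too low to be tested, with RUNDC3B among the 3. The calls of both genes ended without any scaling factor. DESeq2 gave an adjusted p for 8672 of the 10505 genes and for neither of these, so neither could pass or fail there. Of the 10 genes only ABCC5 appears in the authors' deposited table of comparisons, with a log2 fold change of -0.06 (error 0.47).

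CROT, ABCB1 and RUNDC3B lie close together, with ABCB4, which was hardly counted in either group, between them. From TP53TG1, a noncoding RNA gene that starts beside CROT on the opposite strand, to RUNDC3B, the 5 genes TP53TG1, CROT, ABCB4, ABCB1 and RUNDC3B span 509.4 kb (87322943 to 87832296). This stretch was delimited after the values were seen, and ABCB1 and CROT held 47 and 60 of its 124 WT counts. Its sum therefore mostly repeats the values of these genes. Its summed counts were 1 and 3 in KO clones 1 and 5, against 64 and 60 in WT A and B, or 0.307 and 0.776 CPM in KO against 19.0 and 11.2 CPM in WT. TP53TG1 itself had 0 and 0 counts in KO and 1 and 3 in WT, too few to give a fold. A pseudogene inside ABCB1, HNRNPA1P9, had 1 count in WT A and 0 elsewhere.

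The genes on either side of the stretch had counts in both groups. DMTF1, TMEM243, SLC25A40, DBF4, ADAM22 and SRI together had 720 and 824 counts in KO clones 1 and 5, against 627 and 987 in WT A and B, or 221 and 213 CPM in KO against 187 and 184 CPM in WT. TMEM243, a transmembrane protein gene between DMTF1 and TP53TG1, had 2 and 4 counts in KO and 7 and 5 in WT, with overlapping levels. A Y RNA gene, of a family with many near-identical copies, that the table lists as ENSG00000200397.1, inside TMEM243, had 1 and 1 counts in KO and 0 and 3 in WT. Beyond SLC25A40, DBF4, the activating subunit of the CDC7 replication kinase, had 137 and 172 counts in KO and 283 and 249 in WT, a log2 difference of -0.59 (SE 0.32, adjusted p = 0.397 by edgeR). ADAM22, a catalytically inactive member of the ADAM family, had 8 and 11 counts in KO and 14 and 11 in WT (log2 fold change -0.15, SE 0.53). SRI encodes sorcin, a calcium-binding protein often co-amplified with ABCB1 in drug-resistant cells. It had 526 and 577 counts in KO and 286 and 649 in WT, a log2 difference of 0.59 (SE 0.28, adjusted p = 0.309 by edgeR). The next gene, STEAP4, had 1 count in KO clone 5 and 0 elsewhere. Toward the other side KIAA1324L had 1 and 1 counts in KO and 1 and 0 in WT, and the pseudogenes DYNLL1P7 and HNRNPA1P8 had 4 counts and 1 count over all libraries.

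**Figure D2:**
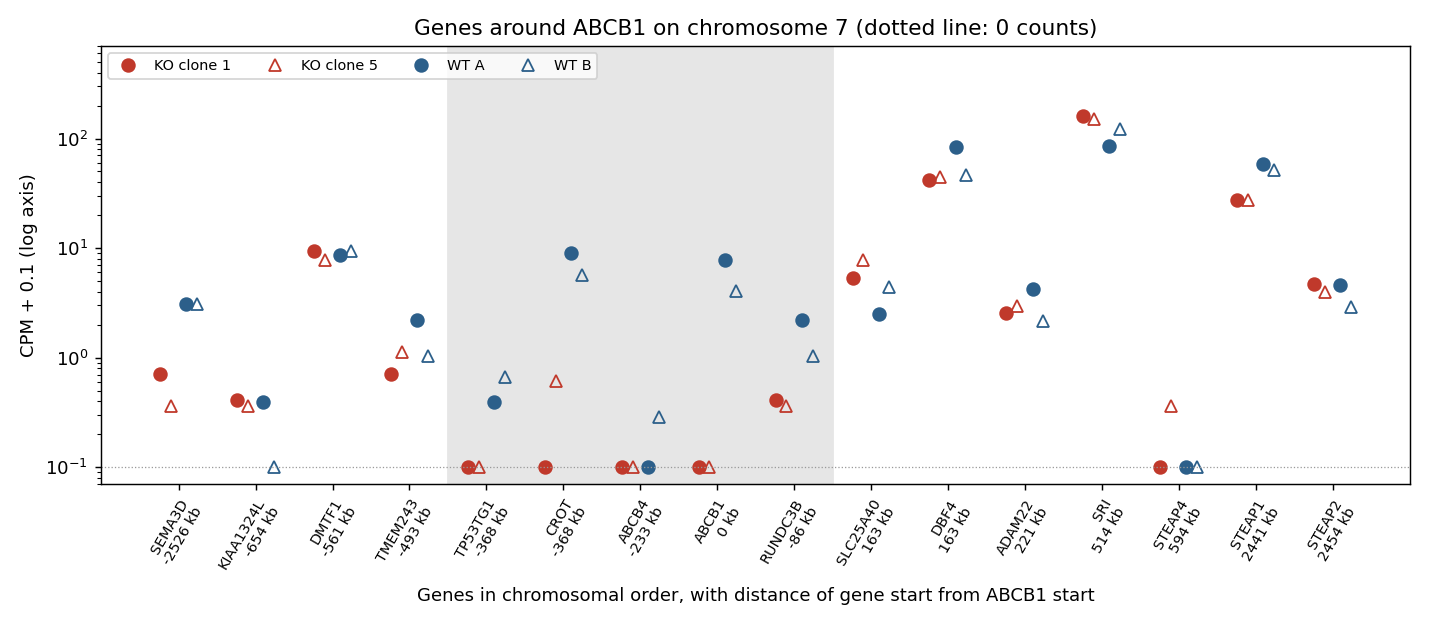
Points give the level of 16 genes around ABCB1 in CPM plus 0.1 on a log axis, in chromosomal order from left to right, for KO clones 1 and 5 (red) and WT A and B (blue); grey marks TP53TG1 to RUNDC3B and the dotted line marks 0 counts. In the grey stretch the summed level was 0.307 and 0.776 CPM in the KO clones, against 19.0 and 11.2 CPM in WT. Its edges were set after the values were seen, and ABCB1 and CROT held 47 and 60 of its 124 WT counts. SLC25A40, DBF4 and SRI beside it had counts in all 4 libraries.

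Within 5 Mb of ABCB1 lie 70 genes besides those of the set, which include the neighbours given above. Of these 44 had a count, 17 were tested, and 0 rose or fell in edgeR, DESeq2 or limma-voom, with 0 higher and 2 lower at an unadjusted edgeR p under 0.05, which 10.7% of all tested genes passed as higher and 5.66% as lower. The median log2 fold change of these 17 was -0.07, beside 0.00 over all tested genes and -0.03 over the 459 tested genes of chromosome 7 outside the window. SEMA3D, a secreted semaphorin gene, had 2 and 1 counts in KO and 10 and 16 in WT, a log2 difference of -2.73 (SE 0.72, adjusted p = 0.0697 by edgeR). STEAP1, a member of the STEAP metalloreductase family, had 90 and 105 counts in KO and 198 and 277 in WT, a log2 difference of -1.01 (SE 0.29, adjusted p = 0.0991 by edgeR), and passed without KO clone 5. CDK14, a cyclin-dependent kinase gene noticed after its values were seen, had 0 and 0 counts in KO and 3 and 8 in WT. It was at least 2.99-fold lower in KO against the same floor, again with the WT counts taken as exact.

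Sequence upstream of the starts was set side by side because ABCB1, CROT and RUNDC3B had fewer counts in KO while nearby SLC25A40 did not. RUNDC3B had too few counts for the main fit. RefSeq windows (GRCh38.p14) were found for 8 of the 10 genes, and the 250 bases before the start are shown for 4 starts of chromosome 7. Capitals mark CCAAT and GGGCGG, the letters of the CCAAT box and the GC box, on either strand, so ATTGG and CCGCCC are marked too; no marked stretch overlaps another.
ABCB1, chr7:87600885-87601134, minus strand: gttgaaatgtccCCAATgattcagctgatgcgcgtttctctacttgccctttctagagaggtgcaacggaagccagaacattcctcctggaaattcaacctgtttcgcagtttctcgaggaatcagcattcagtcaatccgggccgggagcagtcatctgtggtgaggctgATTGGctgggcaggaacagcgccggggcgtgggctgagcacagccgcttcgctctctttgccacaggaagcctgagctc
CROT, chr7:87345414-87345663, plus strand: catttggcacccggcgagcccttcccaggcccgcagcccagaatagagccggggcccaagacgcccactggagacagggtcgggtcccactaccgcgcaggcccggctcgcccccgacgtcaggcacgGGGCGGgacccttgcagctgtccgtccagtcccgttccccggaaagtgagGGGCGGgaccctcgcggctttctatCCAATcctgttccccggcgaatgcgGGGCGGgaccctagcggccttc
RUNDC3B, chr7:87628148-87628397, plus strand: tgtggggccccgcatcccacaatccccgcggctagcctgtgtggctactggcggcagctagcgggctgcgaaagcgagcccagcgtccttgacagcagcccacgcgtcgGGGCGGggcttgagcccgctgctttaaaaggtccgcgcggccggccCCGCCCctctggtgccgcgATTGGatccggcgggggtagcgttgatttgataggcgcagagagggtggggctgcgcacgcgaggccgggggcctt
SLC25A40, chr7:87876361-87876610, minus strand: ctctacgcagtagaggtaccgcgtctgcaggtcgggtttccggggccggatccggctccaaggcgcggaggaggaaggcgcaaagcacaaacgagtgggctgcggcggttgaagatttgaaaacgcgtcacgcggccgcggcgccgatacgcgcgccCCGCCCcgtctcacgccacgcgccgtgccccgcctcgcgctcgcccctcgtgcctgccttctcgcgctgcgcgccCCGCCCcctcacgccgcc
The ABCB1 window holds 2 CCAAT matches, 1 of them inverted and nearer to the start, and 0 GGGCGG matches. The inverted CCAAT box of this promoter is a known binding site of NF-Y and YBX1. CROT has 1 CCAAT and 3 GGGCGG matches, RUNDC3B has 1 and 2, and SLC25A40 has 0 and 2. Over all 35116 RefSeq windows of this length 32.0% hold CCAAT and 42.6% hold GGGCGG on either strand, so a match is a description and no sign of binding. The CROT window shares 171 bases with that of TP53TG1, which is read the other way. CG dinucleotides, the sites of DNA methylation, numbered 12 in the ABCB1 window, 25 in CROT, 28 in RUNDC3B and 42 in SLC25A40, against a median of 11 over all windows. Another ABCB1 start lies 112.4 kb upstream, and its window holds 1 CG and neither motif. Methylation was not measured, and counts per gene do not tell which start was used.

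Of the transporters on other chromosomes, ABCC4 and ABCC5 had counts in all 4 libraries, and ABCC1 and ABCG2 were hardly measured. ABCC5 (MRP5), an exporter of cyclic nucleotides and nucleotide analogues, had 51 and 71 counts in KO clones 1 and 5, against 62 and 91 in WT A and B. Its level averaged 17.0 ± 1.92 CPM in KO and 17.7 ± 1.04 CPM in WT (SD, n = 2 each), with overlapping libraries and a log2 fold change of -0.05 (SE 0.30). ABCC4 (MRP4), a related exporter, had 20 and 27 counts in KO and 11 and 22 in WT. Both KO libraries of ABCC4 lay above both WT libraries, at 6.56 ± 0.598 CPM in KO and 3.69 ± 0.587 CPM in WT (SD, n = 2 each), with a log2 fold change of 0.81 (SE 0.40) that did not pass. ABCG2 had 0 and 2 counts in KO and 2 and 0 in WT, so at this depth a difference was not detectable.

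ABCC1 (MRP1), the exporter of glutathione conjugates, had 0 and 1 counts in KO clones 1 and 5 and 0 and 1 in WT A and B. Its longest coding transcript also aligned over 100.0% of its length, at 99.89% identity, to an alternate contig of hg38 for chromosome 16. Among the genes of these lists and this region whose transcripts were aligned to the alternate contigs, 7 had such a near-identical copy, namely ABCC1, ABCC6, ABCF1, TAP1, TAP2, DECR2 and SLC22A18. All 7 had 2 counts or fewer over the 4 libraries, against 31 of the 189 genes without a copy, whose median was 90 counts. No source used here states whether the submitters aligned to alternate contigs, and the part of the copies in the low counts was not tested, so the level of ABCC1 was not measured here in a way that can be read.

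Of the other 42 ABC genes 31 had a count and 14 were tested, and 0 rose or fell in edgeR, DESeq2 or limma-voom. At an unadjusted edgeR p under 0.05, 2 of the 14 were higher and 1 was lower, against 10.7% and 5.66% of all tested genes. The median log2 fold change of the 14 was 0.30, beside 0.00 over all tested genes. ABCF2, a soluble ABC protein of the ribosome-associated ABCF group, had 254 and 218 counts in KO and 105 and 171 in WT, a log2 difference of 1.09 (SE 0.30, adjusted p = 0.0824 by edgeR). ABCA1, the cholesterol exporter to apolipoprotein A-I, had 9 and 5 counts in KO and 9 and 36 in WT, a log2 difference of -1.30 (SE 0.57, adjusted p = 0.270 by edgeR). Without WT B, which held 36 of its WT counts, ABCA1 stood at -0.44. ABCA3, the lung surfactant lipid transporter, had 0.70 (SE 0.32), and ABCD3, a peroxisomal transporter of acyl-CoA, had 0.55 (SE 0.31), neither past the threshold. ABCF2 passed without KO clone 5 and without a filter on low counts, and did not pass with any other library left out.

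**Figure D3:**
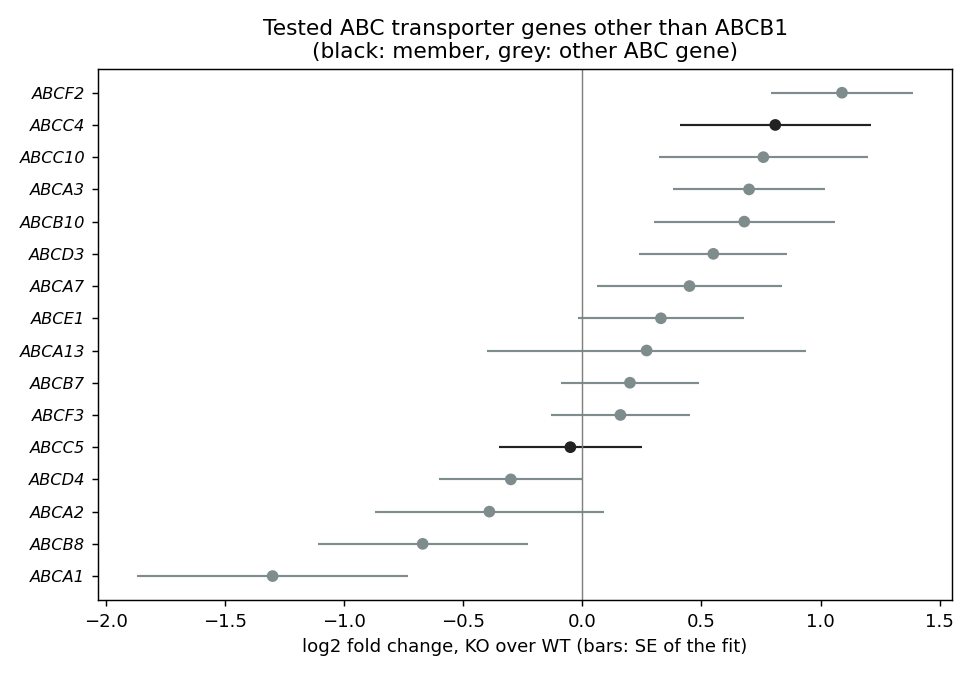
Points give the log2 fold change, KO over WT, of the 16 tested ABC genes other than ABCB1, ordered from high to low, with bars of 1 SE of the fit; black marks ABCC4 and ABCC5 and grey the 14 other genes. The values run from 1.09 for ABCF2 to -1.30 for ABCA1, and none of the 16 passed the threshold.

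Among 30 genes with a published role in ABCB1 transcription, 25 were tested and 2 rose, among them HIF1A, while 0 fell and 23 did not pass. The shares over all tested genes were 1.58% higher and 0.609% lower, and nothing is read from these counts. HIF1A, the oxygen-sensing transcription factor, had 60 and 48 counts in KO and 14 and 33 in WT, a log2 difference of 1.54 (SE 0.37, adjusted p = 0.0454 by edgeR). HDAC2, a histone deacetylase, had 0.87 (SE 0.27, edgeR adjusted p = 0.127) and DNMT1, the maintenance DNA methyltransferase, had -0.60 (SE 0.24, edgeR adjusted p = 0.233). HDAC2 passed without KO clone 1, at 1.12. The median of the 25 was 0.23. The call of HIF1A ended without scaling, with DESeq2, with limma-voom, without WT A and without KO clone 1, with adjusted p between 0.0671 and 0.234.

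Of 36 carnitine and peroxisomal oxidation genes, the pathway of CROT, 25 were tested, of which 1 rose and 0 fell, leaving 24 short of the threshold. Among all tested genes 1.58% rose and 0.609% fell. CPT1C, the brain-type carnitine palmitoyltransferase with low catalytic activity, had 33 and 39 counts in KO and 10 and 19 in WT, or 10.1 ± 0.0281 CPM in KO and 3.26 ± 0.401 CPM in WT (SD, n = 2 each), a log2 difference of 1.61 (SE 0.38, adjusted p = 0.0433 by edgeR). SLC25A20, the mitochondrial carnitine-acylcarnitine carrier, had 1.16 (SE 0.31, edgeR adjusted p = 0.0784) and the peroxisomal import proteins PEX13 and PEX7 had 1.09 (SE 0.30) and 1.17 (SE 0.40), all short of the threshold. PEX13 and PEX7 passed without KO clone 1 and SLC25A20 without KO clone 5, and PEX7 stood at 0.54 without KO clone 5. The median of the list was 0.22, with 16 genes above 0 and 9 below. The call of CPT1C ended without scaling, with DESeq2, with limma-voom and without WT A, WT B or KO clone 1, with adjusted p between 0.0609 and 0.158.

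Of 40 glutathione and drug uptake genes 27 were tested and 0 rose or fell in edgeR or limma-voom, with 4 higher and 0 lower at an unadjusted edgeR p under 0.05 (10.7% and 5.66% over all tested genes), and DESeq2 called GSR as higher. GSR, glutathione reductase, had 1292 and 889 counts in KO and 439 and 869 in WT, a log2 difference of 1.10 (SE 0.29, adjusted p = 0.0736 by edgeR, DESeq2 adjusted p = 0.0435, and 1.7e-05 to 0.523 over all alternatives). GCLC, the catalytic subunit of the rate-limiting enzyme of glutathione synthesis, had 1.08 (SE 0.30, edgeR adjusted p = 0.0862). The nucleoside transporter SLC29A2 had 1.04 (SE 0.39) and the drug efflux carrier SLC47A1 had 0.72 (SE 0.29). GCLC passed without KO clone 1, and GSR and SLC29A2 without KO clone 5. The median of the list was 0.04.

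Of 12 genes linked to DMTF1, which binds D-type cyclins, 11 were tested, 1 rose and 1 fell. Over all tested genes 1.58% rose and 0.609% fell, and nothing is read from the counts of this list. The gene that fell was CCND2, cyclin D2, with 7 and 4 counts in KO clones 1 and 5, against 35 and 44 in WT A and B. CCND2 averaged 1.59 ± 0.788 CPM in KO and 9.31 ± 1.56 CPM in WT (SD, n = 2 each), a log2 difference of -2.54 (SE 0.48, adjusted p = 0.0165 by edgeR), lower in 2 of 2 KO libraries. RB1, the retinoblastoma protein, had 707 and 267 counts in KO and 76 and 272 in WT, a log2 difference of 1.94 (SE 0.49, adjusted p = 0.0598 by edgeR), and CDKN1A, the p21 inhibitor, had 71 and 29 counts in KO and 9 and 27 in WT, 1.84 (SE 0.49, edgeR adjusted p = 0.0773). The median of the 11 was 0.45. The call of CCND2 ended without any scaling factor (edgeR adjusted p = 0.0691, the highest of its alternatives). RB1 and CDKN1A both passed without WT B and without KO clone 5, but without KO clone 1, which held most of their KO counts, both stood at 0.89 and did not pass.

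**Figure D4:**
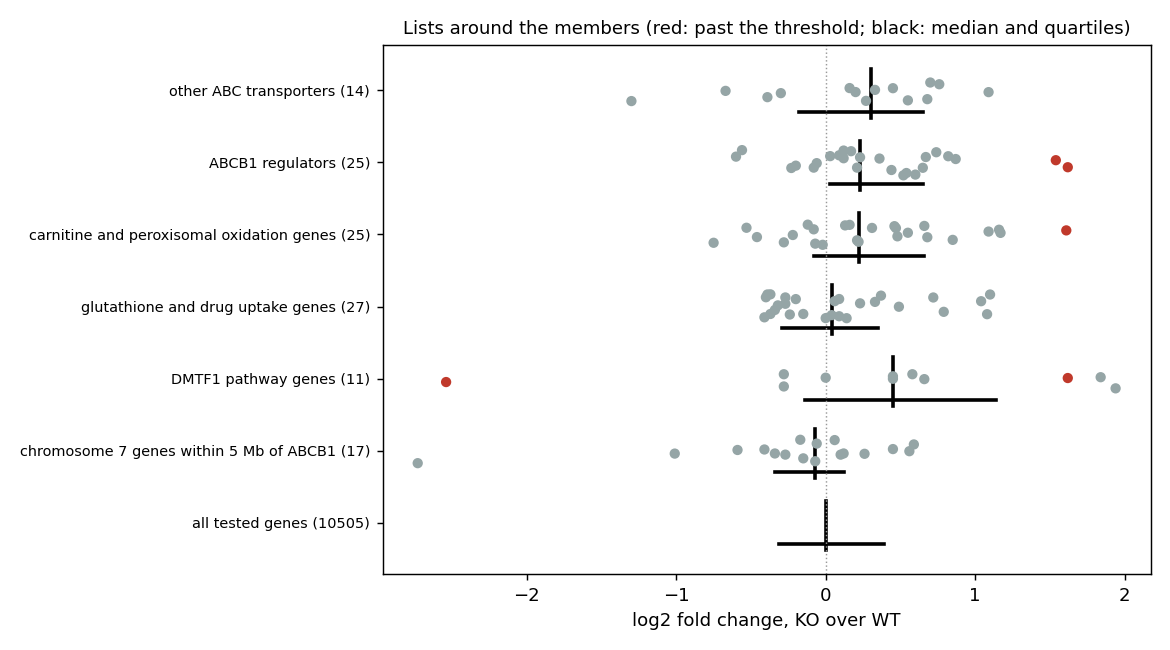
Points give the log2 fold change, KO over WT, of each tested gene of the 6 lists, with the number tested in brackets; red marks genes past the edgeR threshold, and black lines mark the median and quartiles, shown alone for all 10505 genes. Medians run from -0.07 to 0.45, and the red points include HIF1A, CPT1C and CCND2.

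Genes whose levels over the 4 libraries were most like those of ABCB1 and CROT were looked for. Likeness was taken as the Euclidean distance between log2(CPM + 1) values centred on each gene's mean, over 4 libraries, and was 0.46 between ABCB1 and CROT. Adding 1 CPM shrinks the differences of genes as low as ABCB1 and CROT, so a near gene need not have a like fold. Among 8493 tested genes whose mean count was 20 or more, which leaves CROT and ABCB1 out, the 5 nearest to ABCB1 were AKR1C3 at 0.48, IAH1 at 0.74, CCND2 at 0.90, THUMPD2 at 0.94 and DPP10-AS1 at 1.01. The 5 nearest to CROT were IAH1 at 0.49, AKR1C3 at 0.87, THUMPD2 at 0.97, LINC01551 at 0.99 and GALNT18 at 1.04. AKR1C3 had 4 and 2 counts in KO clones 1 and 5, against 40 and 36 in WT A and B, and IAH1 had 4 and 11 against 108 and 109. None of the 7 different genes lies on chromosome 7, but the count filter also left out RUNDC3B, SEMA3D and CDK14, so these could not appear. Whether reads of AKR1C3 were shared with related members of its family was not tested.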

How the data were processed

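The deposited table holds raw read counts per gene for 4 libraries, a whole-number count not normalised by the authors, and 0 count columns were left unused. The submitters' processing notes name hg38, minimap2, SAMtools, Subread, DESeq and DESeq2 1.22.2, without settings. The 2 WT columns were known by the catalogue number of the line, without a replicate number. The authors' deposited table gives a log2 fold change with its error and an adjusted p-value for 6479 genes; its sign matched that of the fit here in 99.4% of them.

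Counts were fitted in edgeR 4.0.16 (R 4.3.3). With filterByExpr, genes needed a total of 15 and about 10 counts, scaled for library size, in as many libraries as a group holds. Sizes were scaled by TMM. Robust quasi-likelihood F tests (two-sided) were followed by Benjamini-Hochberg adjustment over 10505 genes and a threshold of 0.05. The fit was run on simulated counts, with changes set only in genes of a higher mean level than ABCB1 and CROT. That run therefore does not check the fit for these genes. CPM are counts per TMM-scaled library size, and the SE is the log2 fold change divided by the root of F. Library totals ran from 3121759 to 5303199 counts, and tested genes had a median of 44 to 76 counts per library, so genes near 10 counts are imprecise. Positions came from GENCODE 44 on hg38; 41272 rows were placed. Transcripts were aligned to 261 alternate contigs with minimap2 2.31, and a copy needed at least 80% of the transcript at 98% identity. The genes of the report and the lists were chosen with earlier results of these data known. Named genes were the 10 genes, up to 4 genes with the lowest p and any called gene of each list, the nearest 4 counted genes on each side of the stretch from DMTF1 to SLC25A40 and those within it, the 5 nearest profiles and MATR3; others were chosen after their values were seen. Alternatives were RLE, upper-quartile or no scaling, genes kept at any count or from a mean of 50, limma-voom (limma 3.58.1), DESeq2 1.42.0 and each library left out in turn. Some genes of the lists are counted but not reported here by name.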

Additional observations from a re-analysis of the deposited data

How the results depend on the processing

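No paired analysis was possible because the KO numbers name clones and the WT columns carry no replicate number. ABCB1 and CROT passed as lower with RLE and upper-quartile scaling, without a count filter and with limma-voom. Both met the count filter of the main fit through their WT counts alone. They were picked with this contrast known and all fits reuse the same libraries, so these passes are a description only. Without any scaling factor 0 of the 10 genes passed as lower (CROT at -4.51), DESeq2 gave neither an adjusted p (nor ABCA1, SEMA3D and ADAM22), and at a mean of at least 50 counts neither was tested, so the count there was 0 as well. With 0 KO counts, the fitted value of ABCB1 depends on the tool (-7.49 in edgeR, -6.82 in DESeq2, -5.24 in limma-voom) and is no measured fold. The fitted value of CROT ran from -7.83 to -3.71 with libraries left out, where the lowest value lacks any KO count. With libraries left out, log2 fold changes of DMTF1 ran from -0.22 to 0.03, of ABCC5 from -0.17 to 0.05, of ADAM22 from -0.65 to 0.37, of the row listed as MATR3 from -0.46 to 0.16 and of the other MATR3 row, ENSG00000015479.19, from -0.04 to 0.10. The last was -0.01 with upper-quartile scaling. None of these genes passed in any of these fits.

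Over all genes 166 were higher and 64 lower. Without scaling these were 20 and 11, without a count filter 385 and 183, at a mean of at least 50 counts 71 and 12; the lower calls were 34 with DESeq2 and 41 with limma-voom, and with libraries left out the ranges were 75 (without WT A) to 828 (without KO clone 5) higher and 53 (without WT B) to 469 (without KO clone 5) lower. Higher calls among the ABCB1 regulators were 0 without scaling, 1 at a mean of at least 50 counts, with DESeq2 and with limma-voom, and 1 to 5 with libraries left out. Among carnitine and peroxisomal genes they were 0 without scaling, at a mean of at least 50 counts, with DESeq2 and with limma-voom, 3 without a filter and 0 to 3 with libraries left out, where lower calls ran from 0 to 1. Among other ABC transporters they were 1 without a filter and 0 to 1 with libraries left out, and among glutathione and drug uptake genes 2 without a filter, 1 with DESeq2 and 0 to 2 with libraries left out. DMTF1 pathway genes had 0 higher and 0 lower without scaling, 3 higher without a filter, 0 lower at a mean of at least 50 counts and 1 to 3 higher with libraries left out. Within 5 Mb of ABCB1, lower calls ran from 0 to 1 with libraries left out. Except where the construction shows it (fewer genes tested or fewer libraries), the cause was not tested. Of the other values of single genes, 287 kept direction and side of the threshold, 21 newly passed and 16 no longer passed. KO counts of 0 to 2 per library limit what can be said of ABCB1, CROT and RUNDC3B.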
